A study of Mus musculus with 74 samples.

Results

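Alveolar type 2 cells are the cuboidal cells of the lung alveolus that make, store and recycle surfactant, the mixture of phospholipid and protein that keeps the air spaces open. They assemble surfactant lipids from phosphatidylcholine, pump them into storage organelles called lamellar bodies, release them at the apical membrane and take part of them up again together with phosphate. The 7 genes described here belong to this machinery: *Lamp3* (a lamellar body membrane protein), *Abca3* (the lamellar body lipid pump), *Lpcat1* (an acyltransferase that remodels phosphatidylcholine), *Etv5* (an ETS transcription factor that maintains the cell type), *Lrp2* (megalin, an endocytic receptor), *Slc34a2* (the sodium phosphate cotransporter NaPi-IIb) and *Muc1* (an apical membrane mucin). They were chosen by name, with earlier results of the same comparison of Lung met with PT known, so all values below are a description and support no statement about the choice. All 7 had a row among the 17270 genes of BALB and the 17829 of the table deposited as AKR. Among the 18208 genes of Her2, 19320 of C3Tag and 17351 of SEAGN 6 had a row, since *Lrp2* had none. Having a row means here that the symbol was found on a single row with both means. Rows without a gene name numbered 2671 in BALB, 2684 in SEAGN and 8 to 13 in the other tables. A gene with no row is therefore not shown to be absent.

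RNA-seq was done on bulk tissue of PT, the mammary primary tumors of an animal combined, and Lung met, metastases dissected from the lung, of female mice of 6 models. The FVB models were FVB Her2 (MMTV-neu), FVB C3Tag (C3(1)-TAg) and FVB Myc (MMTV-Myc). By the methods, the tumors of animals with single lesions in these FVB models were resected, and the animals were then aged further. In the PyMT-F1 models FVB MMTV-PyMT males were crossed to BALB/cJ, Sea/GnJ or AKR/J females. By the sample names each group held 6 samples, or 7 in C3Tag, and PT and Lung met came from the same animals. Which samples entered each mean is not recorded beside it. The MMTV and C3(1) promoters drive the oncogenes in mammary epithelium, and no group held lung without a metastasis, so levels in normal lung were not measured. Each table gives 1 mean per gene and tissue, which is the authors' mean of normalized counts. The spread between animals and the depth of each sample are therefore unknown, no test was made, and no difference below is set against replicate error. In the labels of the PyMT-F1 samples both the strain and the tissue conflict between fields, and groups were taken from the sample names. The strain behind each of the 3 PyMT-F1 tables is given only as deposited and was not settled. The tissue of each mean is as the tables' headers name it. Myc was not analysed here. Across all genes the median log2 ratio of Lung met over PT lay between 0.00 and 0.03 in the 5 tables. Normalization can itself bring this median near 0, so it cannot show whether a shift common to all genes enters the ratios. In C3Tag the predicted gene *Gm22614*, named after its value was seen, held 38.3% of the summed PT means.

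The tissue labels were set against marker genes. The luminal keratin *Krt8* had a higher PT mean than 97.8% to 99.4% of genes in each table, and its log2 ratio lay between -0.02 and 0.64. *Ager*, the receptor that marks the flat alveolar type 1 cell, was higher in Lung met in every table, with log2 ratios from 4.04 to 5.48. *Sftpa1*, *Sftpb* and *Sftpc* encode surfactant proteins, and *Nkx2-1* and *Foxa2* encode lung epithelial transcription factors. These genes had no single named row with both means in the 5 tables and were not analysed here. The secretory airway marker *Scgb1a1* had no row either. In bulk tissue, fewer cells of a type and less RNA per cell cannot be told apart.

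In the annotation GENCODE M21 on GRCm38 all 7 are protein coding genes. *Lamp3* lies at chr16:19653378-19706375 and *Etv5* at chr16:22381309-22439719, both on the minus strand. *Lrp2* is at chr2:69424340-69586065 on the minus strand, *Muc1* at chr3:89229057-89233381, *Slc34a2* at chr5:53038081-53071664, *Lpcat1* at chr13:73467197-73516422 and *Abca3* at chr17:24351950-24410201 on the plus strand. These coordinates belong to the annotation, since the build behind the tables was not settled.

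The 250 bases before the start site, from RefSeq on GRCm38.p6, are shown for *Lamp3*, *Lrp2*, *Slc34a2* and *Abca3*. The first 3 reached the highest ratios of Lung met over PT among the members. The product of *Abca3* sits in the same organelle as that of *Lamp3*, but the *Abca3* transcript differed little between the tissues in most tables. Capitals mark matches, on either strand, to the letters of 4 motifs: CTCAAG (the core of sites bound by NKX2-1, the lung epithelial homeobox factor), CCGGAA (the core of sites for ETS factors such as Etv5), TTGCNNAA (C/EBP factors) and TGTTTAC (forkhead factors).
Lamp3, chr16:19706366-19706615, minus strand: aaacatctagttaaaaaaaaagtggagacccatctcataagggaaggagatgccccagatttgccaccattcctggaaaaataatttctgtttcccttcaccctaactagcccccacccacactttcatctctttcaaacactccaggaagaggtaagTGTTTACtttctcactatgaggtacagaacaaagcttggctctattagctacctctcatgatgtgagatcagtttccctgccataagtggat
Lrp2, chr2:69586030-69586279, minus strand: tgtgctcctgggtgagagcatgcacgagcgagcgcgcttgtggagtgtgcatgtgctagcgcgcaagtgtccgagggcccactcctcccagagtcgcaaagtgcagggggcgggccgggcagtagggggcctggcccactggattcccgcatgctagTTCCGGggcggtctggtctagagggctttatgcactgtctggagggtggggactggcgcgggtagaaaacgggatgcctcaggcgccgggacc
Slc34a2, chr5:53049103-53049352, plus strand: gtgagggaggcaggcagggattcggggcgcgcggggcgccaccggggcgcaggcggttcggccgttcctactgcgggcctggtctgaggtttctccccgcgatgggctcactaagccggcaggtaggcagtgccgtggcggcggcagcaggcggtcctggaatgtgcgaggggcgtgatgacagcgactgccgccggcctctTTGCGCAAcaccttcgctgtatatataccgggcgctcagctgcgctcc
Abca3, chr17:24351773-24352022, plus strand: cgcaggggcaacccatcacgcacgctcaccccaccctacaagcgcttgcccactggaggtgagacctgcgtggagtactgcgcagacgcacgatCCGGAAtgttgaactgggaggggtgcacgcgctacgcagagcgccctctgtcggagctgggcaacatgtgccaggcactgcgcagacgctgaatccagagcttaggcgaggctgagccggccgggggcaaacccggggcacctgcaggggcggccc

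All 7 genes have such a window, and *Etv5* has a pair of them. The *Slc34a2* window lies inside the annotated gene, before a RefSeq start downstream of the annotated gene start. No member window held CTCAAG, which 13.3% of all 32851 promoter windows of this length held. CCGGAA was present before *Lrp2* and *Abca3* and in 12.0% of all windows. The palindrome before *Slc34a2* matched TTGCNNAA on both strands, against 9.56% of all windows. TGTTTAC was found before *Lamp3* and in 1 window of *Etv5*, against 3.17% of all windows. No match overlapped one of another motif. *Lamp3* had the window poorest in G and C, at 42.4%, while the other member windows held 54.8% to 71.2% and the median of all windows was 52.4%. A match describes the letters alone.

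Of the 35 combinations of 7 genes with 5 tables, 32 had a row. The exceptions were *Lrp2* in Her2, C3Tag and SEAGN. The Lung met mean was above the PT mean in 27 of the 32 and below it in 5. The share of all genes above PT was not counted, and the median log2 ratio over all genes was near 0 in each table. The 27 include small differences such as *Etv5* in BALB, at 0.04, so nothing is read from this count. It was at least 2-fold higher in 17 and at least 2-fold lower in 0. In Her2, 3 of 6 members with a row were at least 2-fold higher, beside 2.38% of all genes. In C3Tag 5 of 6 were, beside 7.42%. In BALB 3 of 7 were, beside 2.26%. In SEAGN 2 of 6 were, beside 2.86%, and in the table deposited as AKR 4 of 7 were, beside 7.31%. The share of all genes at least 2-fold lower was 1.43% in Her2, 1.70% in C3Tag, 2.40% in BALB, 3.22% in SEAGN and 1.73% in the table deposited as AKR. Because the members were chosen on this contrast, nothing is read from the distance between these counts and their background. The median log2 ratio of the members was 0.83 in Her2, 2.37 in C3Tag, 0.63 in BALB, 0.75 in SEAGN and 1.14 in the table deposited as AKR.

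**Figure D1:**
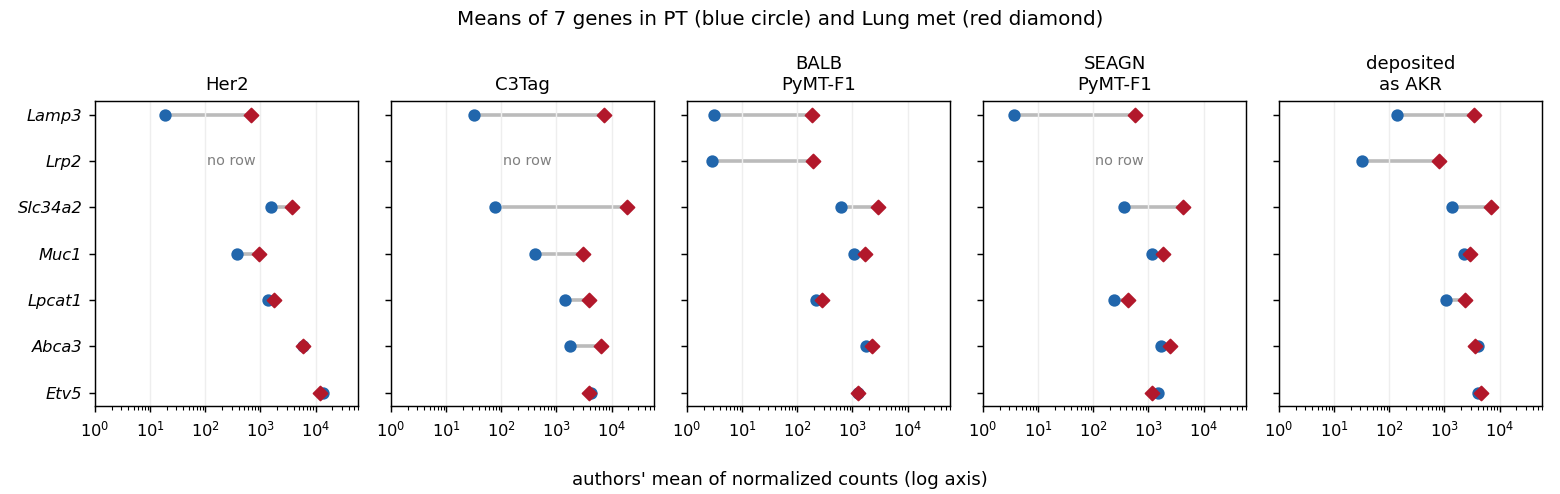
The authors' mean of normalized counts of each of the 7 genes (rows) in PT (blue circles) and Lung met (red diamonds) on a log axis, 1 panel per table, with no error bars because no value of a single sample was analysed. *Lamp3* and, where it has a row, *Lrp2* span a wide gap in every panel, *Slc34a2* spans its widest gap in C3Tag, and both symbols nearly coincide for *Etv5*.

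The lamellar body gene *Lamp3* was between 24.6-fold and 230-fold higher in Lung met than in PT, and had the highest ratio of all members in Her2 and SEAGN. Its mean was 18.6 in PT and 680 in Lung met of Her2, 31.7 and 7280 in C3Tag, 3.12 and 187 in BALB, 3.70 and 577 in SEAGN, and 140 and 3428 in the table deposited as AKR. The Lung met mean was above the PT mean everywhere, by 36.5-fold in Her2, 230-fold in C3Tag, 60.1-fold in BALB, 156-fold in SEAGN and 24.6-fold in the table deposited as AKR. On the log2 scale the ratios ran from 4.62 to 7.84. No gene of the SEAGN table had a larger ratio, 2 genes did in C3Tag and in BALB, 12 in Her2 and 22 in the table deposited as AKR.

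The PT level of *Lamp3* differed in position between models. Its PT mean exceeded that of 0.955% of genes in BALB, 2.14% in SEAGN, 12.9% in Her2, 17.9% in C3Tag and 33.3% in the table deposited as AKR. In Lung met it exceeded 57.3% of genes in BALB, 58.6% in Her2, 83.5% in SEAGN, 91.1% in the table deposited as AKR and 98.0% in C3Tag. In BALB and SEAGN the PT mean was a few normalized counts, so the ratio there rests on a small denominator.

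*Lamp3* is also known as DC-LAMP, because mature dendritic cells make it, and dendritic cell genes were therefore read beside it. Of 9 mature dendritic cell markers, 8 had a row in at least 1 table. At least 2-fold higher in Lung met were 0 of 7 in Her2, 2 of 8 in C3Tag, 0 of 4 in BALB, 0 of 4 in SEAGN and 4 of 8 in the table deposited as AKR. The summed mean of the list was 0.903-fold in Her2, 1.41-fold in C3Tag, 0.914-fold in BALB, 0.517-fold in SEAGN and 2.06-fold in the table deposited as AKR, Lung met over PT. *Ccr7*, the chemokine receptor that guides mature dendritic cells, had a mean of 14.6 in PT and 23.4 in Lung met of Her2, and of 29.5 and 41.0 in C3Tag. In the table deposited as AKR the dendritic chemokine *Ccl17* went from 17.8 to 333, a log2 ratio of 4.23. In C3Tag *Ccl17* had the highest ratio of the list, 2.71. The list medians were 0.10 in Her2, 0.55 in C3Tag, -0.06 in BALB, -0.16 in SEAGN and 1.23 in the table deposited as AKR, so sum and median differ in direction in Her2. *Fscn1*, an actin bundling gene that other cells also express, lay at -0.53 in Her2 and -1.62 in SEAGN. *Cd40*, a costimulatory receptor gene, lay at 0.34 in BALB and 0.44 in SEAGN. The part of dendritic cells in the *Lamp3* values was not tested.

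The lipid pump gene *Abca3* showed another pattern. Its mean was 5907 in PT and 5825 in Lung met of Her2, 1756 and 6458 in C3Tag, 1731 and 2227 in BALB, 1709 and 2478 in SEAGN, and 4085 and 3542 in the table deposited as AKR. The log2 ratios were -0.02, 1.88, 0.36, 0.54 and -0.21 in the same order. C3Tag alone passed 2-fold, at 3.68-fold. In PT *Abca3* already exceeded 82.9% of genes in C3Tag and between 93.1% and 96.6% in the other 4 tables, so its transcript was abundant in primary tumors where that of *Lamp3* was scarce.

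Other genes of lamellar bodies and related lysosomal organelles were mostly level. Of 15 in the list 14 had a row in every table, and *Gpr143* had none. At least 2-fold higher were 0 of 14 in Her2, 4 of 14 in C3Tag, 0 of 14 in BALB, 1 of 14 in SEAGN and 1 of 14 in the table deposited as AKR, with medians between 0.03 and 0.27. The general lysosomal membrane genes *Lamp1* and *Lamp2*, relatives of *Lamp3*, had log2 ratios from 0.08 to 0.44 and from -0.05 to 0.24. *Rab38*, a small GTPase of lamellar body formation, had its highest ratio, 2.19, in C3Tag, with means of 27.3 and 124. *Adgrf5*, a receptor that limits surfactant pools and that endothelium also makes, reached 2.27 in the table deposited as AKR. *Rab27a*, a GTPase of secretory organelles, was the only list gene at least 2-fold lower, at -1.24 in SEAGN.

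The acyltransferase gene *Lpcat1* was higher in Lung met in all 5 tables, by less than *Lamp3*. Its mean was 1355 in PT and 1792 in Lung met of Her2, 1429 and 3938 in C3Tag, 222 and 283 in BALB, 242 and 421 in SEAGN, and 1091 and 2404 in the table deposited as AKR. The ratios were 1.32-fold, 2.76-fold, 1.27-fold, 1.74-fold and 2.20-fold, so C3Tag and the table deposited as AKR passed 2-fold. In PT it exceeded 61.7% to 78.8% of genes.

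Most other listed genes of the phosphatidylcholine and fatty acid pathway stayed below 2-fold in every table. All 18 listed synthesis genes had a row in 4 tables and 17 in BALB. At least 2-fold higher were 0 in Her2, 2 in C3Tag, 2 in BALB, 0 in SEAGN and 0 in the table deposited as AKR, and the list medians lay between 0.05 and 0.44. *Pcyt1a*, whose enzyme sets the rate of phosphatidylcholine synthesis, had log2 ratios from -0.04 to 0.19. The related acyltransferase gene *Lpcat4* reached 1.26 in BALB, and *Lpcat2* and *Lpcat3* stayed between -0.36 and 0.45. The fatty acid desaturase gene *Scd1* had its highest ratio, 1.64, in C3Tag, and the fatty acid synthase gene *Fasn* had its highest, 1.41, in BALB. Like *Lpcat1*, the list gene *Elovl1* was higher in Lung met in every table, with log2 ratios from 0.28 in BALB to 1.03 in C3Tag. *Lpcat4*, *Scd1*, *Fabp5* and *Cept1* were also higher in every table, and each other list gene was lower in at least some table.

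The transcription factor gene *Etv5* had the narrowest range of log2 ratios across the tables among the members, 0.62. Its mean was 13914 in PT and 11986 in Lung met of Her2, 4244 and 3848 in C3Tag, 1246 and 1282 in BALB, 1516 and 1138 in SEAGN, and 4009 and 4622 in the table deposited as AKR. The log2 ratios were -0.22, -0.14, 0.04, -0.41 and 0.21, and no table passed 2-fold. Its PT mean exceeded 92.9% to 98.7% of genes, so primary tumors of every model analysed expressed it at a high level.

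Relatives of *Etv5* and the feedback genes of FGF and MAPK signaling, which the same pathway induces, were likewise near level. All 12 had a row in every table, 1 was at least 2-fold higher in Her2, 1 in C3Tag and 0 in the other 3, and the medians ran from -0.31 to 0.30. The exceptions were *Fgfr3*, an FGF receptor, at 2.69 in Her2 with means of 23.0 and 149, and *Spry4*, a feedback inhibitor, at 1.55 in C3Tag. *Etv4* lay between -0.43 and 0.69 and *Etv1* between -0.82 and 0.64. *Fgfr2*, the FGF receptor of alveolar type 2 cells, had a mean of 115 in PT and 2580 in Lung met of C3Tag, a log2 ratio of 4.48, against 0.23 to 0.78 in the other tables.

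*Lrp2*, the endocytic receptor gene, had a row in BALB and in the table deposited as AKR. Its mean was 2.79 in PT and 195 in Lung met of BALB, which is 69.6-fold, and 31.5 and 789 in the table deposited as AKR, which is 25.1-fold. No gene of the BALB table had a larger ratio than its log2 value of 6.12. The PT mean exceeded 0.677% of genes in BALB and 18.4% in the other table, and the Lung met mean 58.2% and 60.3%. In BALB the PT mean of *Lrp2* was thus a few normalized counts, so the ratio there rests on a small denominator. The partners of megalin and the other LDL receptor genes differed less. All 12 had a row in at least 1 table, 3 of 12 were at least 2-fold higher in C3Tag and 0 in the other 4 tables, and medians lay between 0.07 and 0.45. The 3 were *Clu*, whose secreted product is carried by megalin, at 3.04, and *Cubn* and *Amn*, which encode the coreceptor cubam. *Cubn* had a C3Tag mean of 9.20 in PT and 26.1 in Lung met, and *Amn* one of 19.0 and 53.4. *Dab2*, the endocytic adaptor, and *Lrpap1*, the chaperone of the family, lay between 0.20 and 0.76 and between -0.03 and 0.39.

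The phosphate transporter gene *Slc34a2*, which lactating mammary epithelium also expresses, varied most between models among the members. Its mean was 1565 in PT and 3757 in Lung met of Her2, 75.5 and 18739 in C3Tag, 633 and 2898 in BALB, 359 and 4186 in SEAGN, and 1360 and 7051 in the table deposited as AKR. The Lung met mean was higher throughout, by 2.40-fold, 248-fold, 4.58-fold, 11.7-fold and 5.18-fold. On the log2 scale this ran from 1.26 in Her2 to 7.96 in C3Tag, a range of 6.69 against 3.23 for *Lamp3*. No gene of the C3Tag table had a larger ratio.

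The position of *Slc34a2* among the genes of a table stood apart in PT of C3Tag. Its PT mean exceeded 28.3% of genes in C3Tag, and 73.6% to 84.3% in the other 4 tables. In Lung met it exceeded 92.1% to 99.6% of genes in all 5. The other phosphate transporters with a row, *Slc20a1*, *Slc20a2* and the exporter *Xpr1*, all lay between -0.17 and 0.38, and *Slc34a1* and *Slc34a3* had no row.

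The mucin gene *Muc1* was higher in Lung met in all 5 tables. Its mean was 369 in PT and 924 in Lung met of Her2, 408 and 2979 in C3Tag, 1077 and 1662 in BALB, 1139 and 1851 in SEAGN, and 2234 and 2887 in the table deposited as AKR. Her2 at 2.50-fold and C3Tag at 7.30-fold passed 2-fold, and the other 3 lay at 1.54-fold, 1.62-fold and 1.29-fold. Mammary epithelium also makes *Muc1*, and its PT mean exceeded 46.8% of genes in Her2 and 52.3% in C3Tag, but 84.4% to 93.4% in the 3 PyMT-F1 tables. Of the other membrane mucins, *Muc20* lay between -0.25 and 0.99. *Muc4* went from 5.92 to 89.7 in Her2, a log2 ratio of 3.92, and from 461 to 1246 in the table deposited as AKR, a log2 ratio of 1.44, while in C3Tag it lay at -0.36. *Muc15* lay between -0.37 and 0.78 in its 4 tables, and *Muc3*, *Muc13* and *Muc16* had no row.

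**Figure D2:**
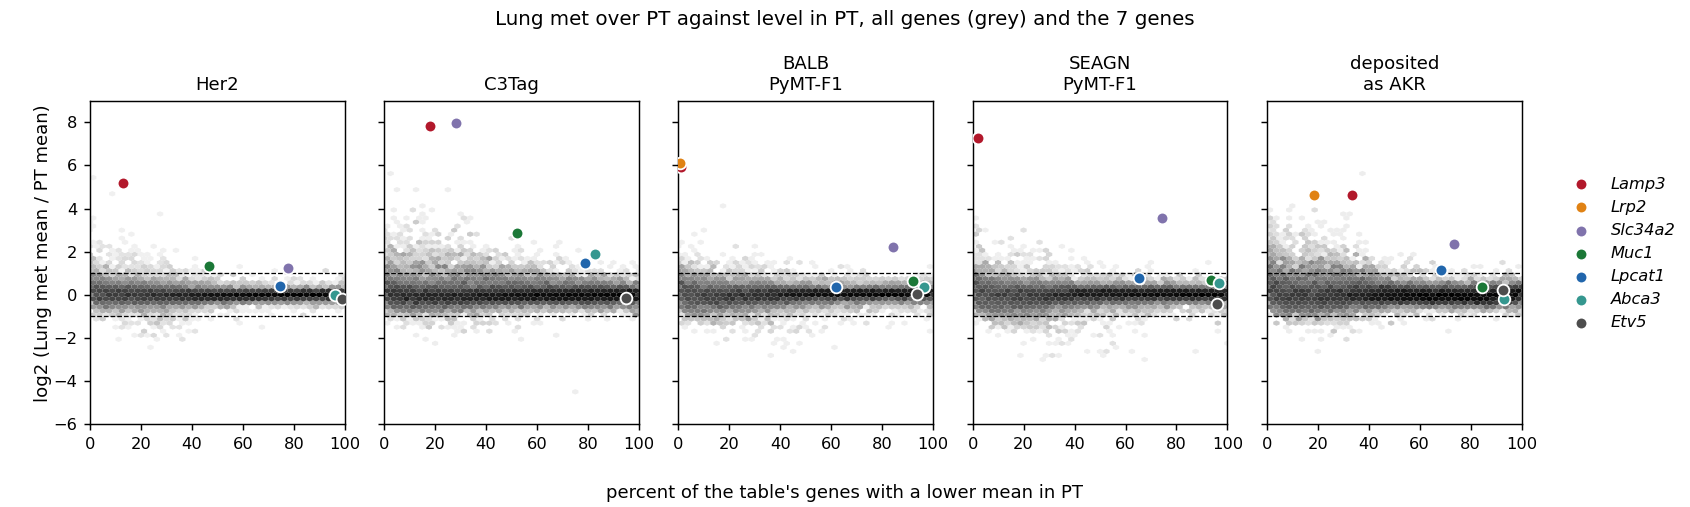
The log2 ratio of Lung met over PT (vertical) against the percent of a table's genes with a lower PT mean (horizontal), with all genes in grey by density and the members as colored points, and dashed lines at 2-fold. 2 genes of Her2, 27 of C3Tag and 1 of SEAGN lie outside the vertical range and are not drawn. *Lamp3* and *Lrp2* lie toward the left and the top of each panel that holds them, *Etv5* and *Abca3* at the right near 0 apart from *Abca3* in C3Tag, and *Slc34a2* moves to the upper left in C3Tag.

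Compared per kilobase of annotated exon, the members stood in one order in PT and in another in Lung met. These levels divide each mean by the exon length of the gene in GENCODE M21, also for BALB and SEAGN, whose tables use the BALB/cJ annotation. No spread was available, so whether neighbors in these orders differ was not tested. In PT the highest level per kilobase was that of *Etv5* in Her2 (3391), C3Tag (1034) and the table deposited as AKR (977), and that of *Muc1* in BALB (459) and SEAGN (486). *Lamp3* was the lowest in Her2 (5.55), C3Tag (9.44) and SEAGN (1.10), and *Lrp2* in BALB (0.167) and the table deposited as AKR (1.89). In Lung met *Slc34a2* was the highest in C3Tag (3738), SEAGN (835) and the table deposited as AKR (1407), *Etv5* remained highest in Her2 (2921) and *Muc1* in BALB (708). The highest member exceeded the lowest by 110-fold to 2744-fold in PT and by 5.43-fold to 60.8-fold in Lung met.

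Differences between both means, in normalized counts, gave a view that does not depend on a small PT mean. For *Lamp3* the Lung met mean minus the PT mean was 661 in Her2, 7248 in C3Tag, 184 in BALB, 573 in SEAGN and 3288 in the table deposited as AKR. For *Slc34a2* it was 2191, 18663, 2265, 3828 and 5690. Per normalized count of the *Lamp3* difference, *Slc34a2* thus differed by 3.31 in Her2, 2.57 in C3Tag, 12.3 in BALB, 6.68 in SEAGN and 1.73 in the table deposited as AKR. For *Lpcat1* this quotient lay between 0.311 and 0.661 in all 5 tables. For *Abca3* it ran from -0.165 in the table deposited as AKR to 2.70 in BALB, with a sign that differed between tables. For *Muc1* it lay between 0.199 and 3.18. For *Etv5* it ran from -2.91 in Her2 to 0.198 in BALB, and for *Lrp2* it was 1.04 in BALB and 0.230 in the table deposited as AKR. *Napsa*, the aspartic protease that processes surfactant protein B, gave a quotient between 0.413 and 0.631 in all 5 tables. Other alveolar genes varied more, with *Sftpd* between 0.654 in C3Tag and 2.96 in the table deposited as AKR. *Ager* lay between 0.288 and 2.83 in the same tables.

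The surfactant protein and processing genes that had a row were higher in Lung met beside the members. *Sftpd*, the collectin surfactant protein D, had log2 ratios of 1.21 in Her2, 6.29 in C3Tag, 5.72 in BALB, 5.59 in SEAGN and 5.68 in the table deposited as AKR. Its PT mean exceeded 71.9% of genes in Her2, 25.9% in C3Tag, 5.34% in BALB, 9.49% in SEAGN and 37.0% in the table deposited as AKR. *Napsa* lay at 3.68, 6.01, 3.54, 4.61 and 4.80 in the same order. *Ctsh*, a cathepsin that also takes part in surfactant processing, lay at 2.66 in C3Tag and between 0.04 and 0.74 elsewhere, the same tables in which *Abca3* passed and did not pass 2-fold. Of the 3 list genes with a row, 2 were at least 2-fold higher in each table, and 3 in C3Tag.

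Of 16 other identity genes of alveolar type 2 cells, 13 had a row in at least 1 table. At least 2-fold higher were 7 of 10 in Her2, 8 of 8 in C3Tag, 5 of 10 in BALB, 6 of 10 in SEAGN and 8 of 12 in the table deposited as AKR. *Hc*, complement component C5, and *Lyz1*, a lysozyme, had no row in C3Tag and lay between 4.23 and 5.04 and between 4.35 and 6.24 in the other 4 tables. *Cebpa*, a transcription factor of alveolar type 2 cells and of adipocytes, lay at 2.39 in C3Tag and between -0.14 and 0.69 elsewhere. *Chil1*, a secreted chitinase-like protein that mammary tumors also make, had PT means above 75.8% to 99.4% of genes and log2 ratios from -0.14 to 2.09. *Il33* had the lowest ratio of the list, -0.64 in Her2, and lay between 0.50 and 2.53 elsewhere. The summed mean of the list was 1.05-fold to 6.43-fold in Lung met over PT, lowest in BALB.

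**Figure D3:**
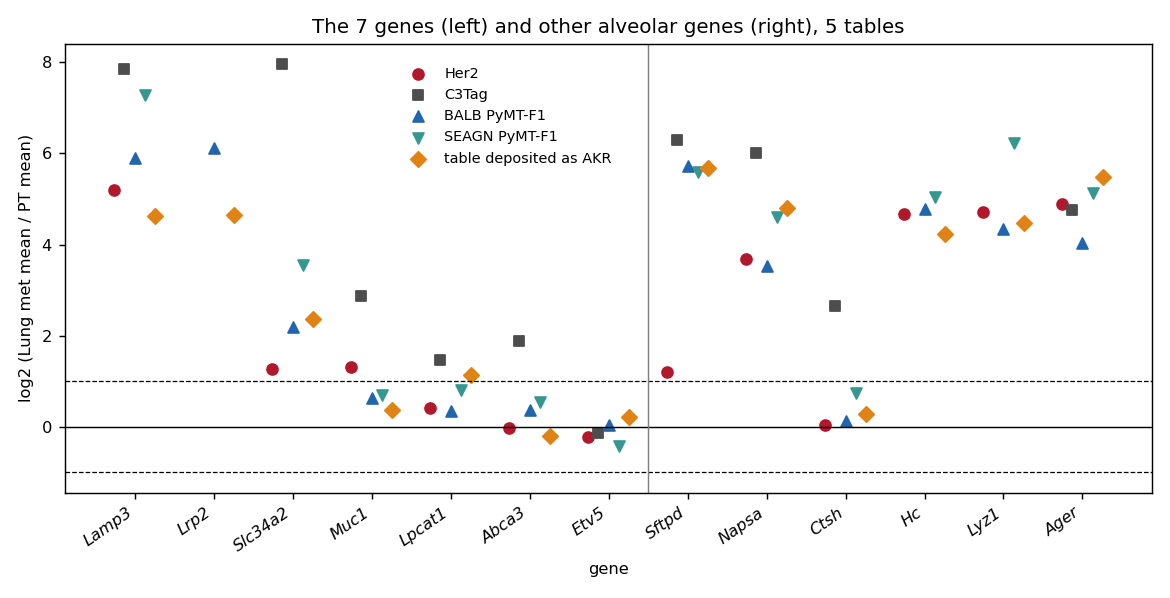
The log2 ratio of Lung met over PT for the 7 members (left of the grey line) and for 6 other genes of the alveolus (right), 1 symbol per table, with dashed lines at 2-fold. *Lamp3*, *Lrp2*, *Hc*, *Lyz1* and *Ager* lie above 4 wherever they have a row, *Slc34a2* and *Sftpd* spread widely, and *Abca3* and *Ctsh* pass 2-fold in C3Tag and not elsewhere.

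Over the 12317 genes with a single row in every table, 68 were at least 2-fold higher in Lung met in all 5, which is 0.552%. Of the 6 members among them, *Lamp3* and *Slc34a2* were in this set. Of the lists, it also held *Sftpd* and *Napsa*, the type 1 cell genes *Ager*, *Clic5*, *Rtkn2*, *Hopx* and *Akap5*, the alveolar genes *Gata6* and *Dram1*, the airway genes *Cyp2f2* and *Aldh1a1* and the endothelial genes *Vwf* and *Cldn5*. Ordered by the lowest of the 5 log2 ratios, *Lamp3* came first at 4.62 of all 68, followed by *Ager* at 4.04, *Clic5* at 3.73 and *Napsa* at 3.54.

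Lists of type 1, airway and endothelial genes were higher in Lung met in the median of every table. Alveolar macrophage markers were mixed, with medians from -0.40 to 2.28. The part of these cell types in the results was not tested. Of 8 alveolar type 1 markers, at least 2-fold higher were 7 of 8 in Her2, 8 of 8 in C3Tag, 5 of 7 in BALB, 5 of 7 in SEAGN and 7 of 8 in the table deposited as AKR, and the medians ran from 2.85 to 3.92. The summed mean of this list was 0.864-fold to 4.99-fold in Lung met over PT, and *Aqp5*, a water channel of type 1 cells that was also abundant in PT, made up most of that sum in PT. Airway markers with a row, *Aldh1a1*, *Cyp2f2* and *Foxj1*, had medians between 1.02 and 3.63 and summed means 2.30-fold to 10.1-fold higher, and *Foxj1*, a gene of ciliated cells, stayed between -0.42 and 0.94. Of 8 alveolar macrophage markers 5 had a row in at least 1 table, with summed means 0.768-fold to 2.11-fold and single genes from -2.73 (*Fabp4* in SEAGN) to 5.92 (*Ear2* in C3Tag). All 7 endothelial markers had a row in every table. At least 2-fold higher were 3 in Her2, 6 in C3Tag, 2 in BALB, 2 in SEAGN and 7 in the table deposited as AKR, and their summed mean was 1.65-fold to 3.76-fold higher.

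Luminal mammary markers were near level in the median, and proliferation markers were lower in Lung met of C3Tag. The 10 luminal mammary markers had medians between -0.09 and 0.14 and summed means of 0.929-fold to 1.13-fold, with *Krt19* in Her2, at 3.81, as the highest single ratio. Of 6 proliferation markers, 0 were at least 2-fold higher or lower in any table. In C3Tag all 6 were lower, with log2 ratios from -0.80 to -0.54 and a median of -0.73. The summed mean of the list was 0.609-fold in C3Tag, 0.849-fold in Her2, 0.918-fold in the table deposited as AKR, 1.13-fold in BALB and 1.25-fold in SEAGN. C3Tag, where 5 of 6 members passed 2-fold, had the lowest summed proliferation list in Lung met relative to PT. Any link between these values was not tested.

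**Figure D4:**
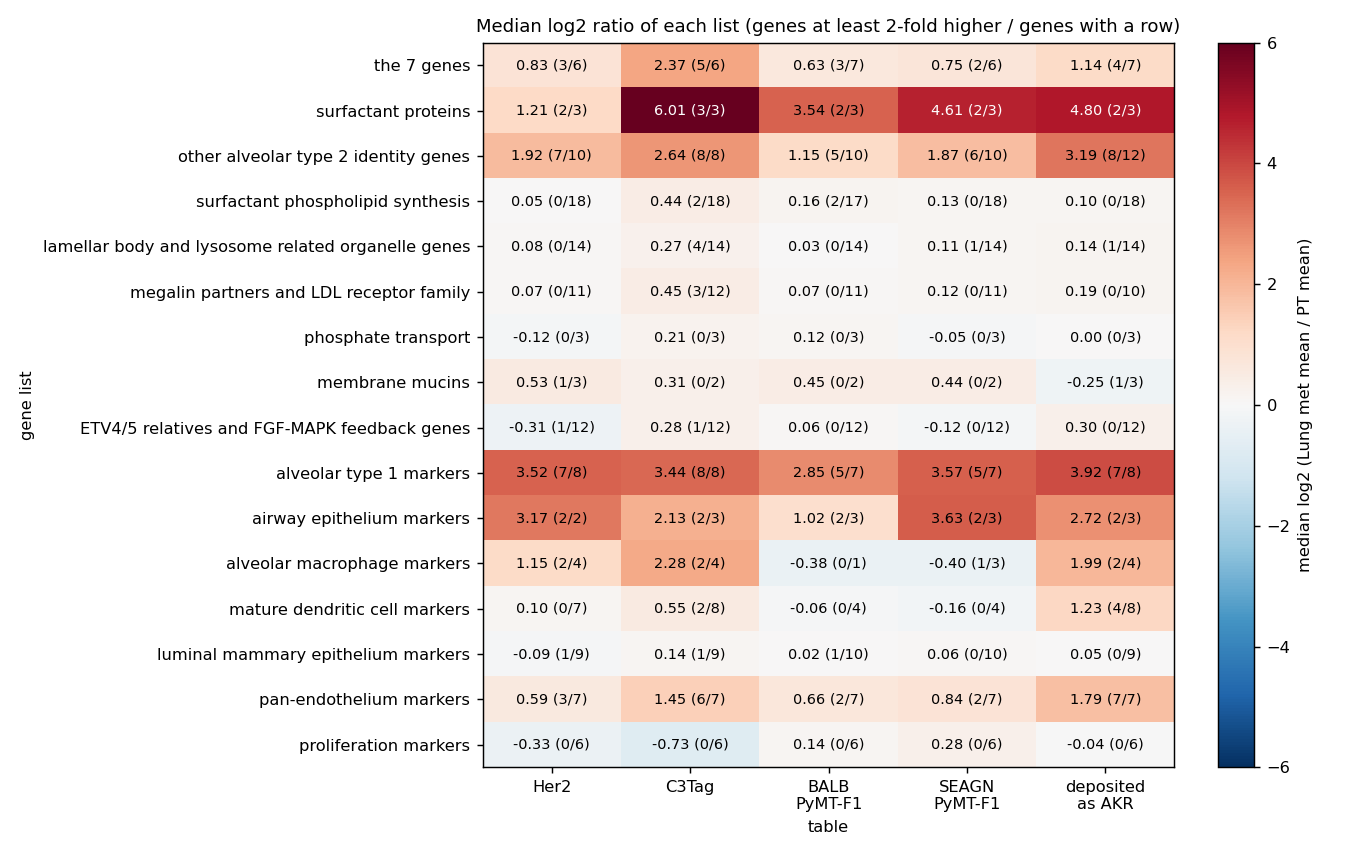
Median log2 ratio of Lung met over PT of the members and of 15 gene lists (rows) in the 5 tables (columns), by color and as the number in each cell, with the count of genes at least 2-fold higher over the count with a row in parentheses. The alveolar type 1 list lies at 2.85 or above and the surfactant protein list at 1.21 or above in every column, and the phospholipid, organelle, megalin, phosphate and FGF feedback lists that surround single members lie near 0.

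Genes with the most similar profile were sought over the 5 log2 ratios, among the 11743 other genes that had a single row in every table and a Lung met mean of at least 10 in each. Distance here is the Euclidean distance between profiles. The nearest to *Lamp3* were *Napsa* (4.30), *Ager* (4.31) and *Clic5* (4.57), all far from it. The nearest to *Slc34a2* were *Scnn1g* (2.62), a subunit of the epithelial sodium channel, *Cd36* (3.03), a fatty acid transporter, and *Tmem252* (3.04). For *Muc1* they were *Itga2* (0.437), an integrin subunit, *Lepr* (0.720), the leptin receptor, and *Clu* (0.808). For *Abca3* they were *Slc35d1* (0.224), *Fgfbp3* (0.350) and *Pdzd2* (0.363), for *Lpcat1* they were *Mamstr* (0.281), *Acvrl1* (0.308) and *Cyfip2* (0.314), and for *Etv5* they were *Nav1* (0.149), *Ift22* (0.170) and *Ntmt1* (0.173). Members near 0 have many genes close by, since most genes lie there. *Lrp2* had too few tables for this comparison.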

How the data were processed

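RNA-seq of PT and Lung met was analysed from the tables of Lung met against PT that were deposited per model, with 74 samples of 6 models in all by the labels. Per the file headers, the deposited values used are group means that the authors estimated by least squares from normalized counts (a signal, 1 per gene and tissue, with no SD or n). The authors aligned and counted reads in Partek Flow, and compared the tissues with Gene Specific Analysis in the driver models and with DESeq2 in the PyMT-F1 models. The submitters' processing notes name STAR 2.7.8a and mm39, while the methods name mm9 and mm10. How the counts were normalized is not given in the sources used here. The tables also hold the authors' p-values, FDR, ratios and fold changes, which were not used. The Myc table holds p-values and FDR alone and was not used.

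From both means, log2 (Lung met / PT) and the percent of genes with a lower mean were computed per table. Rows with no value for a mean (0 in Her2, 1 in C3Tag, 93 in BALB, 53 in SEAGN, 116 in the table deposited as AKR) were left out. A gene was counted as higher or lower at 2-fold. Tables were normalized separately, so levels were compared only within a table, and genes were joined between tables by symbols found on a single row of each table. Depth is unknown, so no interval was computed. Members and the 15 gene lists were chosen with earlier results of these data known. Genes named are every member, 8 surfactant and lung marker genes, list genes at the extremes, and the 3 nearest profiles. Other list genes in the text were named after their values were seen. No test was run, since no value of a single sample was analysed. The computation of the ratios was tested on PT means multiplied by known folds without noise, which checks the arithmetic alone. Alternatives were folds of 1.5 and 3, a pseudocount of 1, a mean of at least 10, and centring on the table's median. Python 3.11.15, numpy 2.4.6, pandas 2.3.3 and matplotlib 3.10.9 were used.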

Additional observations from a re-analysis of the deposited data

How the results depend on the processing

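The count of members at least 2-fold apart stayed within 1.5 times its value in 23 of 25 alternatives. At a threshold of 3-fold it was 1 in Her2, and at 1.5-fold it was 4 in SEAGN. The median log2 ratio of the members kept its direction and moved by less than 1.5-fold in 15 of 15 alternatives, as did the log2 ratios of single members in 96 of 96. The largest of those shifts was 0.43 for *Lrp2* in BALB with a pseudocount of 1. Centring on the median of all genes moved no ratio by more than 0.03. A filter on means under 10 removed no member and cannot change a ratio. Both of these alternatives could thus move ratios and medians little or not at all, and only the pseudocount was able to move them further. The 3 members past 2-fold in every table with a row were *Lamp3*, *Slc34a2* and *Lrp2*, of which *Lrp2* had a row in only 2 tables. What decided whether a gene has a row is not given in the sources used here. *Lrp2* was scarce in PT of BALB, so its passing wherever it has a row is a description alone. Without the table deposited as AKR, an alternative chosen after seeing the data, they were also 3, but *Lrp2* then rested on BALB alone. The 68 genes past 2-fold in all 5 tables were then 71 in the other 4. No paired analysis was possible because the tables hold means and no value of an animal. Depth, the spread between animals and the identity of the cells behind each transcript limit every value given.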
